A study of Rattus norvegicus with 6 samples.

Results

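Short unspliced lncRNAs are the NONCODE transcripts of the tables that are below 500 nt and whose length equals the distance from start to end on the genome, so that the transcript model holds no intron. NONCODE is a catalogue of noncoding RNAs, and its rat transcripts carry identifiers that begin with NONRATT. Of 17967 NONCODE lncRNAs listed, 2301 (12.8%) met this rule, and 15666 did not. The tables list 18649 lncRNAs in all, of which 682 carry Ensembl identifiers. RNA-Seq was performed on INS-1 cells, a rat insulinoma line that secretes insulin and stands in for pancreatic beta cells in culture. There were 3 control samples (Con) and 3 samples kept for 24 h in 25 mM glucose with 0.5 mM palmitate (HG/PA), a treatment used to model glucolipotoxicity. Strand-specific libraries were made from total RNA, and the study describes the 3 samples of a group as biological replicates. Protein-coding genes were not measured in these tables, so beta cell markers such as Ins1, Ins2, Iapp and Pdx1 could not be set beside the cell type label.

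Long noncoding RNAs are transcripts with no long open reading frame, and catalogues of them are assembled from RNA-Seq and cDNA evidence. A transcript without a splice junction gives no junction read, so neither its strand nor its ends can be set from splicing. For this reason single-exon entries are often treated as a class of their own in lncRNA catalogues. Elevated glucose together with the saturated fatty acid palmitate impairs insulin secretion and promotes apoptosis in beta cells. The question put to the data was which of these short transcripts changed in INS-1 cells under HG/PA, and how many fragments each change rests on. In bulk RNA, a change in the share of cells that make a transcript cannot be told apart from a change in its amount per cell.

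Values were FPKM, which divides fragments by transcript length and by the fragments of the sample. Multiplied by length, 100% of the values of each sample were whole multiples of 1 step, within 0.1 step, and the multiple is the number of fragments behind a value. The steps implied a total of 13770880 fragments for Con 1, 12491547 for Con 2 and 12529011 for Con 3, and of 12656956 for HG/PA 1, 13688835 for HG/PA 2 and 13187359 for HG/PA 3. The short unspliced lncRNAs held 53615, 49784 and 48507 of these fragments under Con against 47742, 51807 and 49020 under HG/PA. These were 0.389%, 0.399% and 0.387% of the Con totals and 0.377%, 0.378% and 0.372% of the HG/PA totals, so that each HG/PA sample lay below each Con sample. As a share of the fragments on all listed lncRNAs they were 4.03%, 4.14% and 4.17% in Con against 4.23%, 4.32% and 4.03% in HG/PA, so that 2 of the 3 HG/PA samples lay above every Con sample. For a transcript of 397 nt, the median length, 1 fragment was worth 0.183 to 0.202 FPKM, depending on the sample. A count of 0 allows up to 3 fragments, which at this length is 0.549 to 0.605 FPKM. Such floors, and the intervals given for fragments, describe counting error alone. No listed lncRNA had fewer than 3 fragments summed over the 6 samples, and 89 short unspliced lncRNAs had exactly 3.

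The short unspliced lncRNAs were 201 to 499 nt long. Their median of the mean FPKM over the 6 samples was 1.31, against 1.90 for unspliced NONCODE lncRNAs of 500 nt or more (6222), 1.08 for spliced ones below 500 nt (3321) and 1.56 for spliced ones of 500 nt or more (6123). The order by fragments was the same, with medians of 6.67, 21.3, 5.17 and 16.0 fragments per sample. A mean below 10 fragments was found for 61.7% of the short unspliced lncRNAs and for 42.6% of the other NONCODE lncRNAs. Nevertheless, 1913 (83.1%) were above 0 in all 6 samples, close to the 83.6% of the other NONCODE lncRNAs. Per sample, 2142 to 2170 of the 2301 were above 0. Their median FPKM was 1.29, 1.37 and 1.33 under Con against 1.21, 1.15 and 1.18 under HG/PA. That of the other NONCODE lncRNAs was 1.52, 1.55 and 1.54 in Con and 1.39, 1.38 and 1.39 in HG/PA, so that both medians were lower in every HG/PA sample than in every Con sample.

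**Figure D1:**
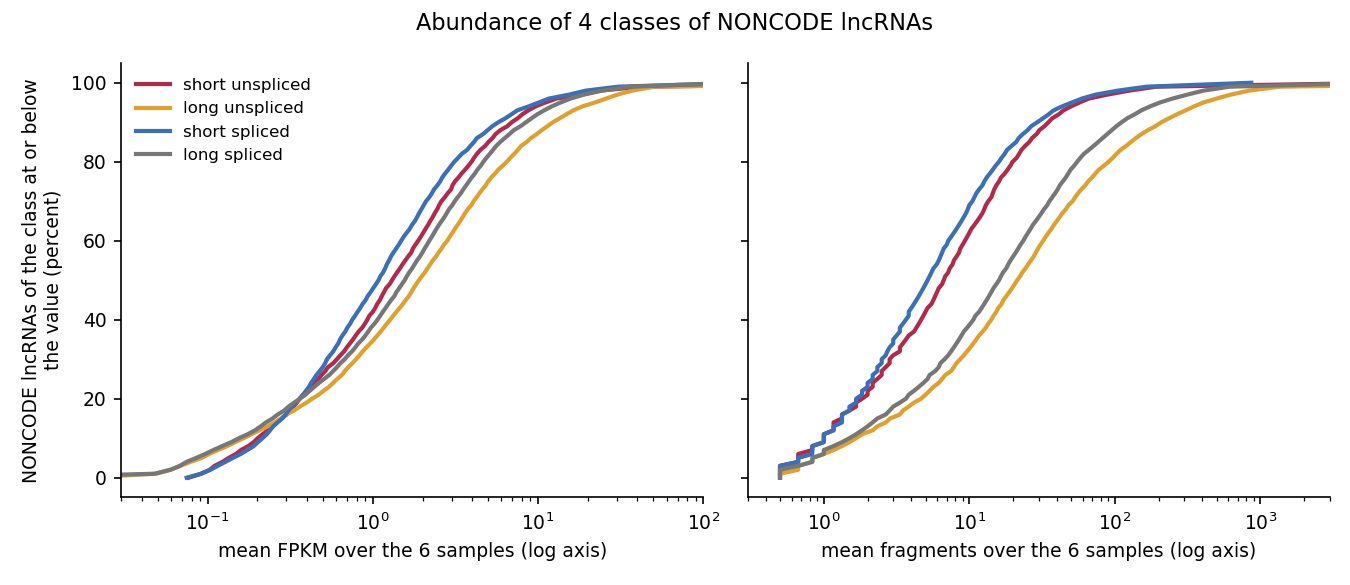
Cumulative percent of the lncRNAs of 4 NONCODE classes (vertical axis) at or below a mean FPKM (left, log axis) or a mean number of fragments (right, log axis) over the 6 samples. The median mean FPKM of the short unspliced lncRNAs, 1.31, lies between those of the short spliced (1.08) and long spliced (1.56) classes, and both short classes have fewer fragments than both long ones.

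The abundance was concentrated in few transcripts. NONRATT003467.2 (chr1:221153903-221154144, 242 nt, Rnor_6.0 as for all positions here) had an FPKM of 2499.9, 2285 and 2403 in Con and of 2415, 2677 and 2517 in HG/PA. NONRATT010821.2 (chr15:27738989-27739245, 257 nt) had 1008, 958 and 885 in Con and 871, 979 and 1059 in HG/PA. In both transcripts the groups overlapped, and together they held 20.1% to 23.8% of all fragments on short unspliced lncRNAs in a sample. The next 6 by mean FPKM were NONRATT003365.2, NONRATT023567.2, NONRATT008213.2, NONRATT005441.2, NONRATT018682.2 and NONRATT016409.2. Among the 8 most abundant, the log2 fold change of HG/PA against Con was between -0.41 and 0.28, so that none reached a fold change of 2, with a lowest limma adjusted p of 0.0605. The lowest of these values belonged to NONRATT023567.2 (chr5:139933019-139933235, 217 nt), with an FPKM of 156, 167 and 144 in Con and of 109, 129 and 114 in HG/PA. Its groups did not overlap, with means of 156 ± 11.7 in Con and 117 ± 10.6 in HG/PA (SD, n = 3 each), and its log2 fold change was -0.41 ± 0.08 (SE).

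The shortest was NONRATT009270.2 (chr14:20280881-20281081, 201 nt), with 4, 4 and 5 fragments in Con against 5, 4 and 2 in HG/PA. Just inside the length limit, 12 transcripts of 499 nt had a mean FPKM from 0.104 to 213, with a median of 5.23. They were NONRATT003365.2, NONRATT008213.2, NONRATT023159.2, NONRATT010349.2, NONRATT001703.2, NONRATT025350.2, NONRATT014924.2, NONRATT023585.2, NONRATT013852.2, NONRATT023873.2, NONRATT014185.2 and NONRATT003189.2, from the highest to the lowest. Just outside, 17 unspliced transcripts of 500 nt had a mean FPKM from 0.0726 (NONRATT025489.2) to 5.48 (NONRATT010693.2), with a median of 1.68. Among those tested on both sides of the limit, the lowest limma adjusted p was 0.101.

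Of the 2301 short unspliced lncRNAs, 2252 passed the filter on low values, 0.1 FPKM or more in 3 or more samples. A lncRNA was called when limma gave a fold change of at least 2 on the scale of log2(FPKM + 0.1), where changes of low transcripts come out smaller than they are, and an adjusted p below 0.05 over the 17558 lncRNAs tested. This was the case for 20 upregulated (0.888%) and 23 downregulated (1.02%) short unspliced lncRNAs. Among all tested lncRNAs 0.655% were called up and 0.832% down, and among the 14763 other NONCODE lncRNAs tested 0.61% and 0.806%. At the fold change and p thresholds of the study, with limma's unadjusted p in place of the study's own test, 69 were upregulated (3.06%) and 100 downregulated (4.44%). The background was 2.59% up and 3.9% down among all tested lncRNAs, and 2.41% and 3.81% among the other NONCODE lncRNAs. By class, the shares called in either direction after adjustment were 1.91% of short unspliced, 1.59% of long unspliced, 1.10% of short spliced and 1.41% of long spliced lncRNAs. In all 43 calls the groups did not overlap, as in all 261 calls among the tested lncRNAs. Of the 43, 8 were at 0 in every Con sample and 5 at 0 in every HG/PA sample (30.2%), so that these 13 passed the filter through the other group alone. This share was 17.7% of the calls among other NONCODE lncRNAs. By class it was 45.7% for short spliced, 6.38% for long unspliced and 18.75% for long spliced lncRNAs. With no filter 6 of the 13 remained called, and with a pseudocount of 1 FPKM 0 of the 13. The difference between the classes was not tested.

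Several short unspliced lncRNAs rose severalfold under HG/PA. NONRATT001611.2 (chr1:240931494-240931760, 267 nt) had an FPKM of 4.35, 5.40 and 4.48 in Con and of 22.5, 24.6 and 28.4 in HG/PA, from 16, 18 and 15 and from 76, 90 and 100 fragments. All 3 HG/PA samples were high and all 3 Con samples low, with no overlap. The means were 4.74 ± 0.569 in Con and 25.2 ± 2.99 in HG/PA (SD, n = 3 each), a ratio of 5.31. Its log2 fold change was 2.38 ± 0.14 (SE; limma, Benjamini-Hochberg adjusted p = 0.00225), and the call was kept when any 1 sample was left out. This lncRNA is among those the study measured by qRT-PCR, which were picked from these samples, so its direction here is not independent evidence. NONRATT014852.2 (chr2:127209-127595, 387 nt) had 9.57, 8.27 and 8.46 FPKM in Con and 34.7, 25.3 and 25.5 in HG/PA, with a log2 fold change of 1.68 ± 0.15 (SE, limma adjusted p = 0.00532). NONRATT010956.2 (chr15:39311178-39311443, 266 nt) had 5.73, 8.73 and 4.20 FPKM in Con and 22.9, 24.7 and 24.8 in HG/PA, with a log2 fold change of 2.00 ± 0.25 (SE, limma adjusted p = 0.0146). In both, the lowest HG/PA sample was well above the highest Con sample. The calls of NONRATT001611.2 and NONRATT014852.2 held in all 6 fits with 1 sample left out, and that of NONRATT010956.2 held in 2 of 6, being lost without Con 1, HG/PA 1, HG/PA 2 or HG/PA 3 (adjusted p up to 0.0798). NONRATT017039.2 (chr20:3280218-3280654, 437 nt), named after its values were seen because it had the most fragments of the called rises, had 17.6, 16.3 and 12.6 FPKM in Con and 33.3, 39.8 and 41.3 in HG/PA. The ratio of its group means was 2.46 and its log2 fold change 1.3 ± 0.15 (SE, limma adjusted p = 0.0119), and its call was lost without HG/PA 2 (adjusted p = 0.0618). With limma without a trend the calls of NONRATT010956.2 (adjusted p = 0.0504) and NONRATT017039.2 (0.0619) were also lost.

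Other transcripts fell. NONRATT027772.2 (chr8:66296589-66296991, 403 nt) had 14.8, 19.7 and 19.6 FPKM in Con and 1.37, 0.725 and 3.76 in HG/PA, from 82, 99 and 99 and from 7, 4 and 20 fragments. Its fall was the largest called on the scale of log2(FPKM + 0.1), as a fall to 0 in HG/PA has no ratio of means. The ratio of its group means was 9.22 and its log2 fold change -3.42 ± 0.52 (SE, limma adjusted p = 0.0264). The HG/PA samples were all far below the Con samples but differed from each other, with a mean of 1.95 ± 1.60 (SD, n = 3) against 18.0 ± 2.81 in Con (n = 3). NONRATT019033.2 (chr3:2570069-2570395, 327 nt) had 14.0, 16.9 and 19.5 FPKM in Con and 5.56, 4.24 and 3.01 in HG/PA, with a log2 fold change of -1.98 ± 0.24 (SE, limma adjusted p = 0.0133). NONRATT019469.2 (chr3:80929565-80929966, 402 nt) had 4.52, 5.18 and 5.36 FPKM in Con and 1.18, 0.909 and 1.51 in HG/PA, with a log2 fold change of -2.00 ± 0.23 (SE, limma adjusted p = 0.0120). In both, the highest HG/PA sample was below the lowest Con sample by more than the spread within either group. The call of NONRATT019033.2 was lost without Con 1, Con 2, Con 3 or HG/PA 2 (adjusted p up to 0.0669), and that of NONRATT019469.2 without Con 1, Con 2, Con 3 or HG/PA 1 (up to 0.0617). That of NONRATT027772.2 was lost without any 1 sample other than HG/PA 3 (up to 0.107). The most fragments of the called falls belonged to NONRATT022511.2 (chr5:134598731-134599153, 423 nt), named after its values were seen, with 191, 199 and 152 fragments in Con against 84, 71 and 66 in HG/PA. Its log2 fold change was -1.31 ± 0.15 (SE, limma adjusted p = 0.0112), and its call was lost without Con 1 or HG/PA 2 (adjusted p up to 0.0637). With limma without a trend the calls of NONRATT027772.2 (adjusted p = 0.0694) and NONRATT022511.2 (0.0588) were lost as well.

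**Figure D2:**
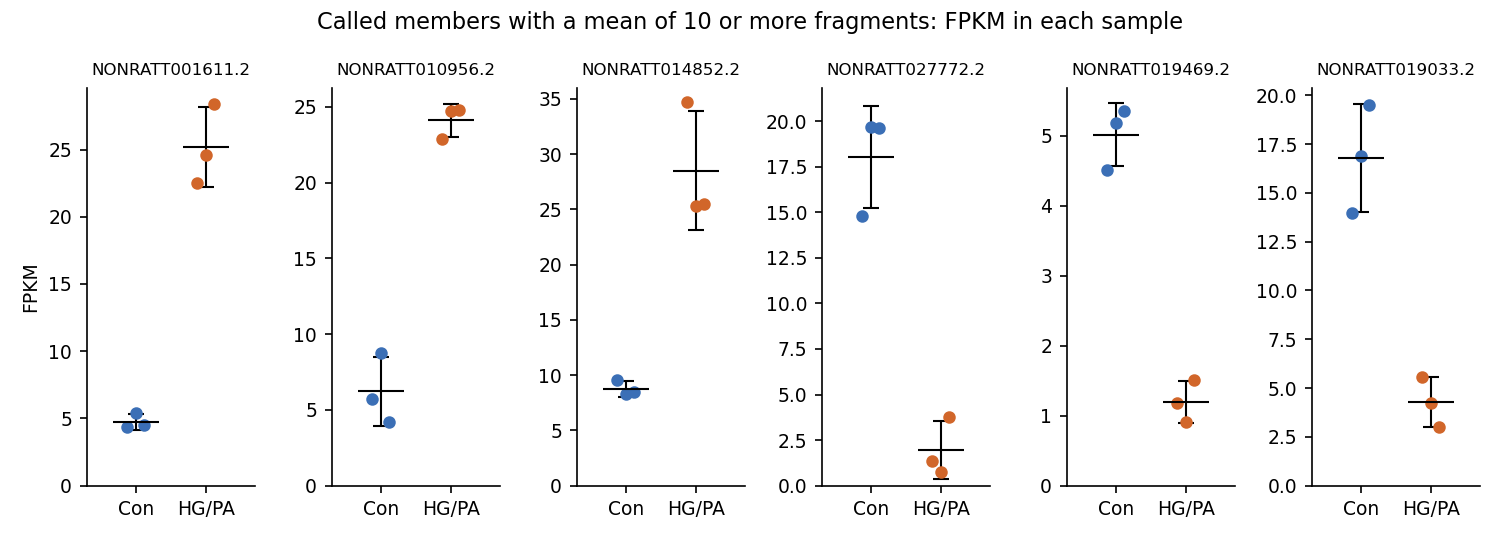
FPKM (vertical axis, from 0 in each panel) in the 3 Con and 3 HG/PA samples (points) for the 6 called short unspliced lncRNAs among the 8 largest rises and 8 largest falls that had a mean of 10 or more fragments; the horizontal line is the group mean and the bar its SD (n = 3). In each panel the groups do not overlap, as in NONRATT001611.2 with 4.35 to 5.40 FPKM in Con and 22.5 to 28.4 in HG/PA.

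The remaining large changes rested on few fragments. NONRATT022883.2 (chr5:168242682-168243007, 326 nt) had 0 fragments in every Con sample and 6, 3 and 4 in HG/PA. With these counts taken as exact, its HG/PA mean was 1.43 times a floor of 3 fragments per Con sample. HG/PA 2 was itself at 3 fragments. The transcript passed the filter through HG/PA alone, and limma gave an adjusted p of 0.00904. NONRATT029356.2 (chr9:51129724-51130088, 365 nt) had 1, 0 and 0 fragments in Con against 4 in each HG/PA sample (limma adjusted p = 0.0463). The ratio of the summed fragments per total was 11.8, with a 95% interval from 1.74 to 503 (exact binomial). NONRATT029262.2 (chr9:23376695-23377081, 387 nt) had 2, 6 and 3 fragments in Con against 0 in every HG/PA sample (limma adjusted p = 0.0249). Its Con mean, with counts taken as exact, was 1.27 times the same floor in HG/PA, and it passed the filter through Con alone. NONRATT024074.2 (chr6:26552214-26552474, 261 nt) had 11, 8 and 10 fragments in Con against 3, 1 and 2 in HG/PA, with a log2 fold change of -2.20 ± 0.39 (SE, limma adjusted p = 0.0413). NONRATT004717.2 (chr10:75326563-75326846, 284 nt) had 4, 4 and 6 fragments in Con against 1 in each HG/PA sample (limma adjusted p = 0.0357). Its summed fragments per total were 4.76 times lower, with a 95% interval from 1.33 to 25.8 (exact binomial). In these transcripts the groups did not overlap, at 0 to 11 fragments in a sample. The call of NONRATT022883.2 held in all 6 fits with 1 sample left out, in each of which Con was at 0 throughout, and with no filter (adjusted p = 0.0117), and was lost with a pseudocount of 1 FPKM, where its log2 fold change was 0.995, below the fold change of 2. Those of NONRATT029356.2 and NONRATT029262.2 held only without Con 1, and those of NONRATT024074.2 and NONRATT004717.2 in none of the 6 (adjusted p up to 0.146). That of NONRATT029262.2 was kept with no filter (adjusted p = 0.0304) and lost with a pseudocount of 1 FPKM, and that of NONRATT029356.2 was lost in both. With limma without a trend the calls of NONRATT029356.2 (adjusted p = 0.0746) and NONRATT024074.2 (0.0747) were lost. That of NONRATT024074.2 was also lost with a pseudocount of 0.01 FPKM, the median of ratios and quantile normalization (adjusted p up to 0.0560), and that of NONRATT004717.2 with a pseudocount of 1 FPKM (log2 fold change -0.84), a filter at 1 FPKM (adjusted p = 0.0582) and limma-voom (0.0764). Quantile normalization (0.0509), limma-voom (0.0504) and a pseudocount of 0.01 FPKM (0.116) also ended that of NONRATT029356.2, and limma-voom that of NONRATT029262.2.

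For 5 of the 16 transcripts with the largest rises and falls, no sample exceeded 3 fragments, and no fold change is given. NONRATT019606.2 (chr3:112017536-112017958) had 0 in every Con sample and 2 in every HG/PA sample, and NONRATT008763.2 (chr13:54166775-54167043) had 0 and 1. NONRATT028812.2 (chr8:87261374-87261859) had 0 in every Con sample and 2, 1 and 2 in HG/PA. NONRATT001075.2 (chr1:173259081-173259476) had 2, 1 and 2 in Con, NONRATT029984.2 (chr9:51412386-51412736) had 1, 1 and 2, and both had 0 in every HG/PA sample. All 5 had a limma adjusted p below 0.05, the lowest being 0.0160 for NONRATT019606.2, and none of the 5 calls held in any fit with 1 sample left out (adjusted p up to 0.148). Each passed the filter through 1 group alone, and each call was lost with a pseudocount of 1 FPKM. With no filter those of NONRATT028812.2 and NONRATT029984.2 were lost (adjusted p = 0.0616 and 0.0565) and the other 3 were kept. At a length of 397 nt 1 fragment is worth 0.183 to 0.202 FPKM, above the pseudocount of 0.1 FPKM. Equal counts, as in NONRATT019606.2 and NONRATT008763.2, leave almost no spread within a group. The others had unequal counts in the group with fragments, and what led to the calls was not tested.

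The median log2 fold change of the 2252 was -0.15, against -0.11 for all tested lncRNAs, and 62.4% of them were below 0, against 60.1%. With the 23 tested transcripts at 0 in a whole group set to their bound, the median was again -0.15. Rescaling by the median of ratios, taken against the geometric mean of the samples, shifted the median over all tested lncRNAs from -0.11 to 0.01 and that of the short unspliced lncRNAs to -0.03. Under this scaling 22 were called up and 16 down, and quantile normalization gave 16 up and 17 down, so that which direction had more calls depended on the scaling. By the unadjusted rule the 69 up and 100 down became 85 and 69 with the median of ratios and 81 and 74 with quantile normalization, so that the direction with more transcripts was reversed. With any 1 of the 6 samples left out, 4 to 9 were called up and 2 to 8 down.

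Of the 43 called, 26 (11 up, 15 down) had a mean of 10 or more fragments, and 11 (7 up, 4 down) had at most 3 fragments in every sample. The latter were 25.6% of the calls. This share was 31.4% (11 of 35) among short spliced, 1.06% (1 of 94) among long unspliced and 1.25% (1 of 80) among long spliced lncRNAs. Among the short unspliced lncRNAs, 56 had 1 fragment in 3 samples and 0 in the other 3. In 10 of these the 3 samples formed a group, 8 times HG/PA and 2 times Con, and 6 of the 10 were called. Calls of this form numbered 6 of 209 among the other NONCODE lncRNAs, and all 6 were among the 35 calls of short spliced lncRNAs. With limma-voom on the recovered fragments, which weights each value by its precision, 23 of the 43 calls were kept (10 up, 13 down). They included 19 of the 26 with a mean of 10 or more fragments and 1 of the 11 with at most 3 fragments in every sample.

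**Figure D3:**
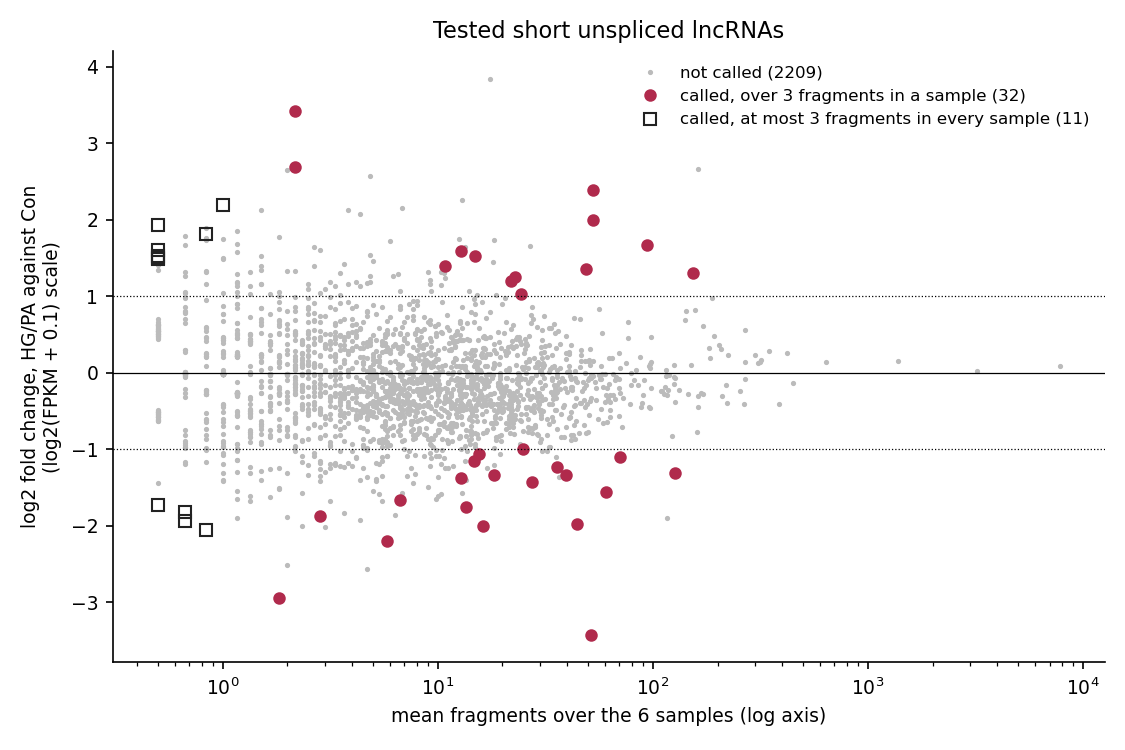
Log2 fold change of HG/PA against Con (vertical axis, log2(FPKM + 0.1) scale) against the mean fragments over the 6 samples (log axis) for the 2252 tested short unspliced lncRNAs; dotted lines mark a fold change of 2. Calls with more than 3 fragments in at least 1 sample (32, filled circles) lie mostly above 10 fragments, and the 11 calls with at most 3 fragments in every sample (open squares) lie at a mean of 0.5 to 1 fragment.

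When the tested lncRNAs were divided by their mean fragments, 5 of 503 short unspliced lncRNAs were called at 1 to 3 fragments (0.994%) and 2 of 723 at 3 to 10 (0.277%, 95% interval 0.0335% to 0.996%, exact binomial). At 10 to 30 fragments it was 14 of 596 (2.35%, 1.29% to 3.91%), at 30 to 100 fragments 10 of 227 (4.41%, 2.13% to 7.95%) and at 100 or more 2 of 58 (3.45%, 0.420% to 11.9%). These intervals treat lncRNAs as independent, which they are not, as all share the same libraries. The other NONCODE lncRNAs gave 0.642%, 0.660%, 1.16%, 2.39% and 2.36% in the same bins. Below 1 fragment 10 of 145 were called (6.90%), against 9 of 452 other NONCODE lncRNAs (1.99%). By class the latter were 8 of 186 short spliced (4.30%), 1 of 134 long unspliced (0.746%) and 0 of 132 long spliced lncRNAs. The 10 short unspliced calls below 1 fragment, and 3 of the 5 at 1 to 3 fragments, were at 0 in every sample of 1 group. They passed the filter through the other group alone, so no interval is given for these 2 bins. The median SD of log2(FPKM + 0.1) within a group of short unspliced lncRNAs fell from 0.63 at 1 to 3 fragments to 0.33 at 10 to 30 and 0.14 at 100 or more. For the other NONCODE lncRNAs it was 0.59, 0.39 and 0.14, so that precision followed the number of fragments in both. Counting only lncRNAs with a mean of 10 or more fragments, 26 of 881 short unspliced (2.95%) and 165 of 8959 other NONCODE lncRNAs (1.84%) were called.

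**Figure D4:**
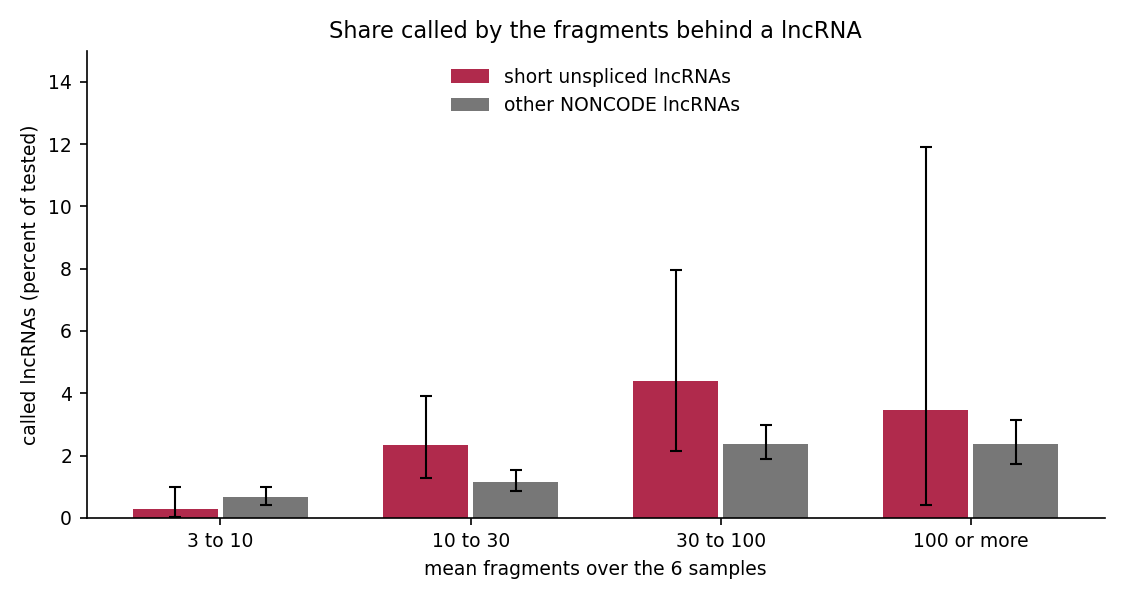
Percent of tested lncRNAs called (vertical axis, from 0) by mean fragments over the 6 samples for short unspliced and other NONCODE lncRNAs; error bars are 95% exact binomial intervals over lncRNAs, which are not independent, and lncRNAs below 3 fragments are left out. Short unspliced lncRNAs stand at 0.277% at 3 to 10 fragments, 4.41% at 30 to 100 and 3.45% at 100 or more.

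The transcripts lay on 21 chromosomes and made up 11.6% (chromosome 8) to 15.8% (chromosome 17) of the NONCODE lncRNAs of a chromosome. Only 330 (14.3%) overlapped another listed lncRNA, against 16.1% of long unspliced, 36.3% of short spliced and 47.8% of long spliced lncRNAs, and 252 (11.0%) lay inside the span of a longer one. The tables give no strand, so reads of overlapping transcripts cannot be assigned to either with certainty. Of the 43 called, 7 overlapped another listed lncRNA. NONRATT022850.2 fell with a log2 fold change of -1.34, its call being lost without Con 1 or HG/PA 2 (adjusted p up to 0.0514), and so did the spliced NONRATT022849.2, whose span overlaps it, with 116, 127 and 117 fragments in Con against 66, 51 and 53 in HG/PA and a log2 fold change of -1.11 (limma adjusted p = 0.0188). NONRATT021346.2 rose with a log2 fold change of 1.25 (limma adjusted p = 0.0472; the call was lost whichever 1 sample was left out, with an adjusted p up to 0.142), while the longer NONRATT020376.2 around it had 336, 328 and 341 fragments in Con against 306, 407 and 261 in HG/PA, with a log2 fold change of -0.10 (adjusted p = 0.793). NONRATT019033.2 had more fragments than either transcript whose span overlaps it, as NONRATT019031.2 had 2 to 8 fragments in a sample and NONRATT019032.2 had 1 to 7. These overlapping pairs were described after their values were seen.

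Neighbouring transcripts were compared by their log2 fold changes where both had a mean of 10 or more fragments. For short unspliced lncRNAs whose nearest listed neighbour lay within 1000 nt without overlap, Pearson's r was 0.22 and Spearman's rho 0.44 (90 pairs), and at a distance of more than 1000 and up to 5000 nt they were 0.45 and 0.46 (137 pairs). From there up to 50000 nt they were 0.25 and 0.30 (197 pairs), and beyond it 0.43 and 0.32 (86 pairs). The same sign was found in 73.3%, 70.1%, 64.5% and 58.1% of the pairs, from the nearest bin to the farthest, and in 68.4% of 76 pairs in which the transcript lay inside a longer one. For the latter, r was 0.15 and rho 0.36. For long unspliced lncRNAs the share was 66.4%, 66.1%, 63.5% and 55.0% in the 4 bins and 59.3% inside a longer one, with r of -0.01, 0.27, 0.28, 0.05 and 0.14 and rho of 0.29, 0.35, 0.27, 0.09 and 0.21 in the same order. Most log2 fold changes were below 0, which by itself raises the share of pairs with the same sign. All pairs share the same 6 libraries, and these values are descriptions across transcripts. NONRATT001611.2 rose while NONRATT001612.2, 847 nt away on the same chromosome, had 400, 367 and 392 fragments in Con against 320, 342 and 408 in HG/PA, with a log2 fold change of -0.15 (limma adjusted p = 0.580). Among called transcripts compared in this way the same sign was the more common, as in every set of pairs above. Some had the opposite sign to the neighbour or longer transcript, such as NONRATT001611.2 and NONRATT021346.2. Some neighbours were far away, up to 1317489 nt for NONRATT014852.2. Called and uncalled pairs were not compared. Only NONRATT020270.2 had a neighbour or longer transcript that was also called. On chromosome 4, NONRATT020270.2 and its nearest listed neighbour NONRATT020271.2, 170690 nt apart, both fell, a pair named after its values were seen. Their log2 fold changes were -1.56 and -1.75 (limma adjusted p = 0.0180 for each). Each of the 2 calls held in 1 of 6 fits with 1 sample left out, that of NONRATT020270.2 without HG/PA 1 (adjusted p up to 0.0927 in the others) and that of NONRATT020271.2 without Con 1 (up to 0.0798), and the former was also lost with limma without a trend (adjusted p = 0.0656).

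The short unspliced lncRNAs formed 84 chains in which each lay within 5000 nt of the next, with 172 transcripts in all. The largest chains held 3 transcripts, and there were 4 of them. On chromosome 11, NONRATT006444.2, NONRATT006445.2 and NONRATT006446.2 had 5 to 15 fragments in a sample, and NONRATT006996.2, NONRATT006997.2 and NONRATT007000.2 had 1 to 12. The chain of NONRATT010078.2, NONRATT010079.2 and NONRATT009517.2 lay on chromosome 14, and that of NONRATT020040.2, NONRATT020041.2 and NONRATT020043.2 on chromosome 3. None of the 12 was called, with log2 fold changes from -0.60 to 0.64 and a lowest adjusted p of 0.450.

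Some short unspliced lncRNAs differed more between samples of a group than between the groups. By a rule chosen after the values were seen, 14 of the 420 with 30 or more fragments in a sample (3.33%) had at least 30 fragments in 1 sample of a group, at least 8 times as many as another sample of the group. NONRATT028954.2 (chr8:115620051-115620423, 373 nt) had 1, 0 and 46 fragments in Con against 0, 82 and 0 in HG/PA, so that only 1 sample of each group was high. NONRATT016788.2 (chr2:211344017-211344442, 426 nt) showed the opposite form, with 188, 171 and 3 in Con and 165, 2 and 178 in HG/PA. NONRATT002300.2 (chr1:72757881-72758357, 477 nt) was low in Con 1 alone, with 22, 221 and 244 fragments in Con against 218, 208 and 216 in HG/PA. NONRATT021497.2 (chr4:100250020-100250500, 481 nt) had 31, 48 and 470 in Con and 48, 382 and 23 in HG/PA. Of the 14, 5 had a span of 8 times or more in both groups. The samples that stood apart were Con 3 and HG/PA 2 in NONRATT028954.2, NONRATT016788.2 and NONRATT021497.2, Con 1 and HG/PA 3 in NONRATT006393.2 and Con 1 and HG/PA 2 in NONRATT010116.2. None of the 14 was called, and none passed the unadjusted rule. The same rule on fragments took 190 of 3187 long unspliced (5.96%), 35 of 503 short spliced (6.96%) and 182 of 2713 long spliced lncRNAs (6.71%), and of these 407, 0 were called and 29 passed the unadjusted rule.

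**Figure D5:**
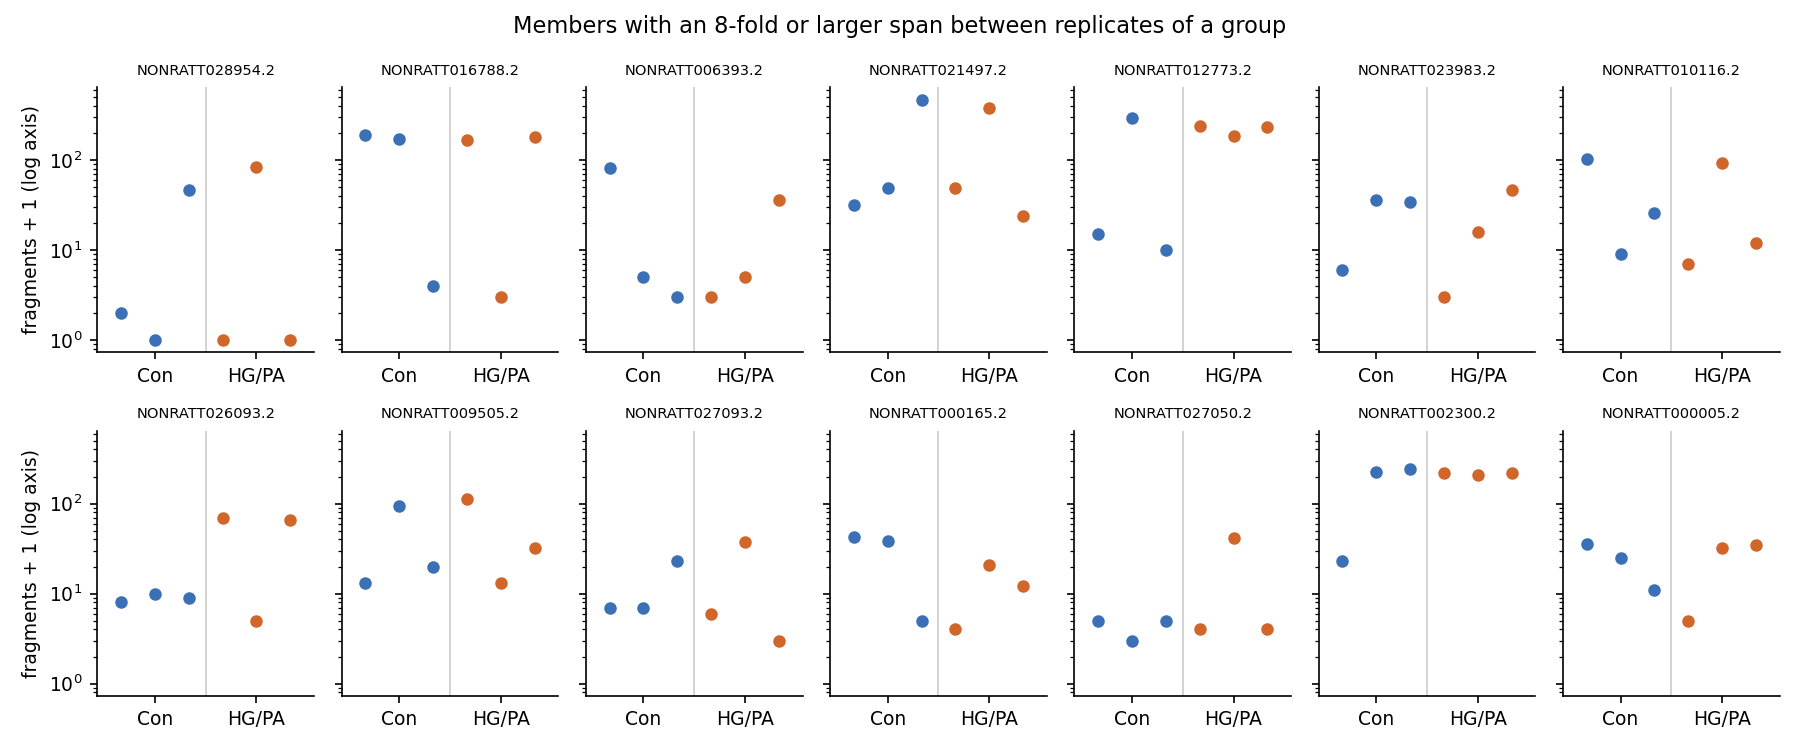
Fragments plus 1 (vertical, log axis) in Con 1 to 3 (left of each line) and HG/PA 1 to 3 (right) for the 14 short unspliced lncRNAs with a span of 8 times or more between samples of a group. In NONRATT028954.2 and NONRATT016788.2 the extreme samples are Con 3 and HG/PA 2, with 46 and 82 fragments in the former and 3 and 2 in the latter.

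Between samples of a group, fragments of short unspliced lncRNAs with a mean of 10 or more gave a chi-square per degree of freedom of 1.99 to 2.65 in the 6 pairs, and the median chi-square of a transcript was 0.438 to 0.610. Of the 49 short unspliced lncRNAs that were not tested, 4 had more than 3 fragments in a sample, and NONRATT003894.2 (chr1:267043735-267043996, 262 nt) had 22 fragments in Con 2, 29 in HG/PA 2 and 0 in the other 4 samples. At 0 in every Con sample were 27 short unspliced lncRNAs, with at most 13 fragments summed over HG/PA, and at 0 in every HG/PA sample were 22, with at most 17 summed over Con. Since a count of 0 allows up to 3 fragments in a sample, presence in 1 group alone could not be shown for these.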

How the data were processed

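The authors filtered reads with seqtk, mapped them with HISAT2 to Rnor_6.0 and deposited FPKM values of annotated lncRNAs computed with StringTie, per the study's methods, which name edgeR for their own test. FPKM and length gave the fragments and totals of each sample. The groups were compared in R 4.3.3 by limma 3.58.1 (lmFit, eBayes with a trend, two-sided) on log2(FPKM + 0.1) over all tested lncRNAs, without further scaling or a replicate block. Python 3.11.15, numpy 2.4.6, pandas 2.3.3, scipy 1.17.1 and matplotlib 3.10.9 were also used. The members and lists were chosen with earlier results of these data known. Transcripts named were the 8 largest rises and 8 largest falls, at the main pseudocount of 0.1 FPKM, among calls with separate groups. The 8 most abundant, those named by the study, the shortest, those at the length limit and the largest chains were also named. Others, such as NONRATT020270.2 and NONRATT020271.2, were named after their values were seen. Alternatives were other pseudocounts, filters and scalings, limma without a trend, limma-voom, a replicate block and leaving out each sample. Gene names, transcript sequences and positions relative to protein-coding genes were not used here.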

Additional observations from a re-analysis of the deposited data

How the results depend on the processing

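Against 20 calls up and 23 down, the short unspliced lncRNAs called numbered 7 up and 14 down with a pseudocount of 1, 12 up with a pseudocount of 0.01, 12 up with no filter, 12 up with a filter at 1 FPKM, 12 up with a mean of at least 10 fragments, 14 down without a trend, and 10 up and 13 down with limma-voom. With lengths below 400 nt counted, fewer transcripts enter, and there were 9 up and 15 down, and 29 up and 54 down by the unadjusted rule. By that rule, whose alternatives were added after the data were seen, the 69 up and 100 down became 12 and 20 with a pseudocount of 1, 26 and 63 with a filter at 1 FPKM, 19 and 35 with a mean of at least 10 fragments, 85 and 69 with the median of ratios, and 81 and 74 with quantile normalization. With 1 sample left out, and at least 2 of 5 samples required to pass the filter, 4 to 9 were called up and 2 to 8 down, and fewer samples enter each fit. All 43 calls had the same sign in every fit that held them, 4 were called in all 6 fits with 1 sample left out and 23 in none. The 4 were NONRATT001611.2, NONRATT014852.2, NONRATT022883.2 and, as the only fall, NONRATT000397.2, named after its values were seen. NONRATT000397.2 had 58, 47 and 45 fragments in Con against 21, 21 and 22 in HG/PA. Its log2 fold change was -1.23 (limma adjusted p = 0.00766). Without a trend 19 of the 43 calls were lost, and among the transcripts named in the text these were NONRATT027772.2, NONRATT010956.2, NONRATT017039.2, NONRATT022511.2, NONRATT024074.2, NONRATT029356.2, NONRATT020270.2 and NONRATT021346.2.

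The median log2 fold change of -0.15 became -0.081 with a pseudocount of 1, -0.21 with a filter at 1 FPKM, -0.034 with the median of ratios and -0.050 with quantile normalization. For the medians, the cause was not tested. Among the alternative fits of single named transcripts, 153 lost a call, no called direction was turned, and 660 kept the transcript on its side of the threshold.

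With the replicate block, 2 were called up and 0 down (unadjusted rule 69 up and 96 down), and limma-voom with the replicate block also gave 2 up and 0 down (59 up and 84 down). The 2 were NONRATT001611.2 and NONRATT014852.2. Neither the sample labels nor the study state whether samples of the same number were paired. The deviations of same-numbered samples correlated at -0.017, -0.014 and -0.032, and 0 of 3 Con samples correlated best with its own number. Between any Con and any HG/PA sample the correlation was near 0 (-0.032 to 0.035), so these values cannot decide whether the samples were paired.

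For 61.7% of the short unspliced lncRNAs the mean was below 10 fragments, and 17 of the 43 calls were among these. The effect of depth on the calls was not tested.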

Other observations

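A few short unspliced lncRNAs had a large log2 fold change and no call, and samples of a group differed widely. NONRATT006061.2 (427 nt) had 0, 0 and 10 fragments in Con against 13, 10 and 72 in HG/PA, with a log2 fold change of 3.85 ± 1.32 (SE, limma adjusted p = 0.201). NONRATT012773.2 (239 nt) had 14, 289 and 9 fragments in Con against 240, 185 and 233 in HG/PA, with a log2 fold change of 2.66 ± 1.22 (SE, limma adjusted p = 0.330). Both were singled out after their values were seen.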
